A study of Homo sapiens with 22 samples.

Results

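The genes described here are 41 genes of DNA replication and of the step from G1 into S phase, followed across 11 groups of PC9 cells. They were chosen by name, from origin licensing to the E2F factors. All 41 were found by their current symbol among the 17165 genes of the deposited table, and all 41 passed the filter on low values. PC9 is an established human lung adenocarcinoma line whose growth depends on an activated mutant form of the receptor EGFR. Gefitinib is a reversible EGFR kinase inhibitor, and WZ4002 binds mutant EGFR covalently. Polyadenylated RNA was sequenced from 22 libraries, 2 in each group. The groups were GR3 cells with WZ4002 or vehicle, GR2 cells with WZ4002 or vehicle, cells labelled WZ4002-tolerant with WZ4002 or vehicle, cells labelled gefitinib-tolerant with gefitinib or vehicle, and parental cells with WZ4002, gefitinib or vehicle. GR2 and GR3 are derivatives labelled PC9-GR2 and PC9-GR3, and how any derivative was made is not given in the labels. Cells were treated for 24 h. The labels give each inhibitor at 1 mM, and that unit is doubtful. Whether the libraries of a group are separate cultures is not stated in the labels. The p-values therefore reflect only how far these libraries spread, which may be technical.

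Before a cell copies its DNA, ORC, CDC6 and CDT1 load the MCM helicase onto origins, which licenses them. CDC45 and the GINS complex then join MCM to make the active helicase, and polymerases follow with the sliding clamp PCNA, its loader RFC and the enzymes that finish the lagging strand. Many of these genes are transcribed by E2F factors, which RB holds back until cyclin D and cyclin E kinases inactivate it in late G1. In PC9 cells EGFR signalling feeds this step through cyclin D1. Since the RNA came from whole cultures, fewer cells in S phase and less RNA of these genes per cell cannot be told apart here.

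Expression is given in CPM, a gene's reads scaled to a common library total, as the authors deposited it. Levels in the text are CPM of library 1 and then library 2 of a group. Differences are in log2(CPM + 1), positive where the first-named group was higher, and a gene is said to have risen or fallen where limma's Benjamini-Hochberg adjusted p over 15485 genes was under 0.05. The spacing of low values put the depth of the libraries between 23.6 and 49.6 M reads. DUSP6, a target of ERK signalling and a check of the inhibitors, read 0.08 to 4.18 CPM in the 12 inhibitor-treated libraries and 17.7 to 276 CPM in the 10 vehicle-treated libraries. Its fall with gefitinib was smaller in gefitinib-tolerant than in parental cells, by 3.22 (limma adjusted p = 0.0101). With WZ4002 it was smaller in WZ4002-tolerant than in parental cells, by 3.14 (0.00835), and in GR3 than in GR2 cells, by 1.89 (0.0426). GR3 cells began lower, since with vehicle they had less DUSP6 than GR2 cells (-2.57, limma adjusted p = 0.000215). With WZ4002, DUSP6 read 0.32 and 0.08 CPM in GR3 and 0.6 and 1.29 CPM in GR2 cells, near the bottom of the range. Both tolerant populations had less DUSP6 than parental cells with vehicle (-1.92 and -2.03) and more with their inhibitor (1.30 and 1.11). The part of this in the members' changes was not tested. The 6 epithelial markers read 107 to 2975 CPM in every library. Their sum was 7010 to 8319 CPM in gefitinib-treated and 4209 to 4695 CPM in vehicle-treated parental libraries, and 3 of 6 rose and 1 fell with gefitinib there. Of all tested genes 23.5% rose and 21.8% fell in that comparison. The leukocyte markers PTPRC, CD3E and CD68 were not among the listed genes, nor were PECAM1 of endothelium and COL3A1 and DCN of fibroblasts. CD14, the leukocyte marker that was listed, read 0.1 to 7.22 CPM per library. In GR2 cells it read 1.49 and 7.22 CPM with WZ4002 and 0.1 and 0.14 CPM with vehicle (2.01, SE 0.39, limma adjusted p = 0.000413). The other 3 endothelial markers summed to 4.75 to 38.2 CPM and the other 3 fibroblast markers to 5.36 to 18.9 CPM per library. The part of these markers in the results was not tested. The 7 genes of the early stress response, several of them ERK targets, summed to 279 to 481 CPM, and with gefitinib in parental cells 2 rose and 2 fell. The libraries of each pair were further apart than counting error alone gives. Their chi-square, divided by the number of genes, was 3.77 in GR2 vehicle cells and 21.9 to 96.8 in the other groups.

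Libraries of a group differed together in these genes, most widely in GR3 vehicle cells. In GR3 vehicle cells all 41 members read higher in library 1 than in library 2, by a median of 1.36 on the log2 scale, while the median over all tested genes was -0.025. The median member there stood at 145% of the mean parental vehicle level in library 1 and at 59.2% in library 2. Results on members and named genes that use GR3 vehicle cells are therefore also given without each of these libraries. This is done wherever it changes a call or a count of calls by over 1.5 times. The fit pools the spread of all 11 groups, so this wide pair also enters the standard errors of comparisons without GR3 cells. The members' median standard deviation was 0.96 in this pair and 0.045 to 0.42 in the other groups. Counts with the spread of the compared libraries alone are given at the end. In the other 10 groups the median gap between library 1 and library 2 ranged from -0.51 in WZ4002-treated parental cells to 0.55 in WZ4002-treated GR2 cells. Library 1 was higher in 41 of 41 members in gefitinib-treated gefitinib-tolerant cells and in 37 to 39 of 41 in 5 other groups, namely vehicle-treated parental, gefitinib-tolerant and WZ4002-tolerant cells and WZ4002-treated GR2 and GR3 cells. It was higher in 2 of 41 in WZ4002-treated parental and 3 of 41 in WZ4002-treated WZ4002-tolerant cells. These gaps followed the order of the table's columns, which fall into 3 runs. In groups with library 1 in the first run and library 2 in the second, library 1 was the higher one, apart from gefitinib-treated parental cells with 21 of 41. What the runs stand for is not given in the labels, and a fit with a term for them is quoted where it moves a count by over 1.5 times. The vehicle-treated GR2 libraries were the closest pair, with a median gap of -0.015, and both lie in run 3. WZ4002-treated GR2 libraries and vehicle-treated parental and GR3 libraries lie in runs 1 and 2. Group and run therefore change together in comparisons of vehicle-treated GR2 cells with these, and in response differences that use GR2 cells. WZ4002-treated parental and WZ4002-tolerant libraries lie in runs 2 and 3. Their vehicle libraries, gefitinib-treated parental and WZ4002-treated GR3 libraries lie in runs 1 and 2. Group and run thus also change together in part where the former are set against the latter or against WZ4002-treated GR2 libraries. The same holds for the response difference of GR3 and parental cells.

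**Figure D1:**
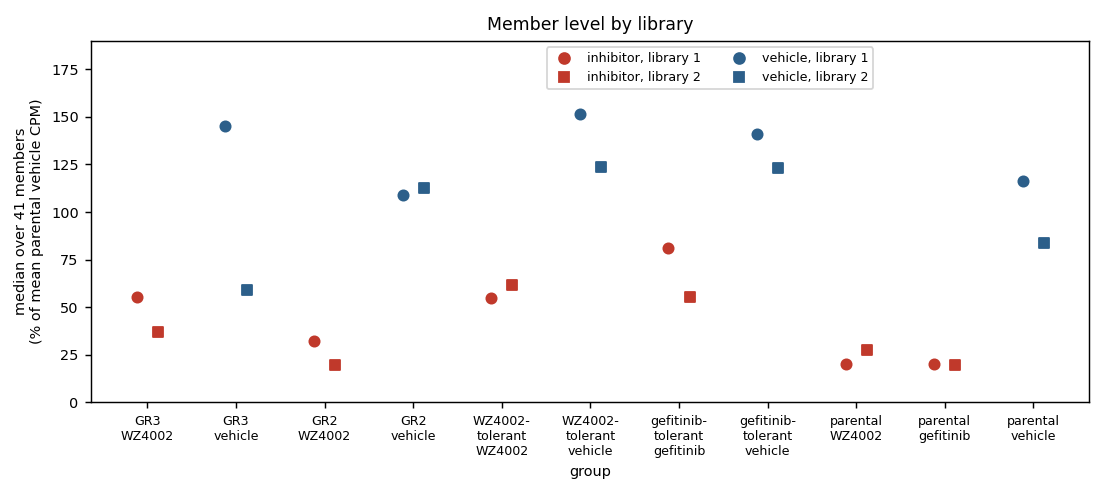
Median level of the 41 genes in each of 22 libraries, as a percentage of their mean CPM in vehicle-treated parental cells (vertical axis), by group (horizontal axis), with circles for library 1 and squares for library 2, red for inhibitor and blue for vehicle. Gefitinib-treated parental libraries sit at 20.1% and 19.6%, and the GR3 vehicle libraries at 145% and 59.2%.

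Promoters of these genes are shown first for the letters that E2F factors are known to bind. Of the members, 37 had an entry in RefSeq's promoter table for GRCh38.p14, and MCM4, MCM5, GINS4 and CCNE2 are named only. The letters searched were TTTGGCGC, TTTGCCGC, TTTCGCGC and TTTCCCGC, on both strands, in a window of 250 bases before and 50 after each gene's start. They occurred in 20 of 37 members (54.05%), against 5.262% of 10718 promoters of tested genes and 3.325% of all 27305 promoters. By role, 6 of 8 licensing genes, 3 of 5 helicase genes and 4 of 6 polymerase genes held them, but 1 of 4 nucleotide supply genes. A list of mitosis genes differed in its letters. Of 19 mitosis promoters 2 held the E2F letters, whereas 15 held TTTGAA or TTCGAA, the letters of the CHR element, which 2 of 37 members held (5.405%) and 11.15% of the promoters of tested genes. CCAAT occurred in 20 of 37 members, against 36.32% of the promoters of tested genes.

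A few promoters show these letters, each as the 250 bases before the start, 5′ to 3′ on the gene's strand, with the E2F letters in capitals. MCM6 (chr2:135876444-135876693, minus strand) is shown for its overlapping matches, 4 in all. E2F1 (chr20:33686386-33686635, minus strand) and E2F2 (chr1:23531234-23531483, minus strand) are shown because both hold the letters near the start while, with gefitinib, E2F1 fell and E2F2 did not. RRM2 (chr2:10122489-10122738, plus strand) is shown as a member with a large fall and no match in this window.
MCM6: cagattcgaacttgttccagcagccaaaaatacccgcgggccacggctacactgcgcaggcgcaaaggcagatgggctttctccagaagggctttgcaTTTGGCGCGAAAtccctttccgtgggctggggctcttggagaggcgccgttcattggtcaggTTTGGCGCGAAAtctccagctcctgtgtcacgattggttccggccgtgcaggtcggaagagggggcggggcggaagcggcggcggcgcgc
E2F1: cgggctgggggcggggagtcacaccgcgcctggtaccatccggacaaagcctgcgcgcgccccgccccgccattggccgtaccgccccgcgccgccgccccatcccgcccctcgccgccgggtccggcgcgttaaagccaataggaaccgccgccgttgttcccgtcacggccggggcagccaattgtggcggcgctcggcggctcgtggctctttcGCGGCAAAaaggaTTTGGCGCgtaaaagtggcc
E2F2: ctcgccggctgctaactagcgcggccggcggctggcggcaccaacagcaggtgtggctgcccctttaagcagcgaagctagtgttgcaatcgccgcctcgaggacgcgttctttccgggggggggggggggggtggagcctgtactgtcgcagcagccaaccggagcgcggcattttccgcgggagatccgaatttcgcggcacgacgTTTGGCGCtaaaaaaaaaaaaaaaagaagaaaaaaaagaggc
RRM2: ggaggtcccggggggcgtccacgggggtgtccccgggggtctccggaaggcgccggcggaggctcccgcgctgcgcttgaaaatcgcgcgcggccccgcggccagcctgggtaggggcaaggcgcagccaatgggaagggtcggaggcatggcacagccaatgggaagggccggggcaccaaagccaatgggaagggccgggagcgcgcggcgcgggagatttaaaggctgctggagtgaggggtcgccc
With gefitinib in parental cells the median log2 difference was -2.14 over 20 members with them and -2.18 over 17 without. Under WZ4002 in WZ4002-tolerant cells the medians were -1.20 and -1.06 for the same sets. The absence of these letters says only that they are not in this window.

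Per kilobase of annotated exon, the 6 subunits of the MCM ring, which act in equal numbers in the helicase, ranged from 12.7 CPM per kb for MCM5 to 45.7 CPM per kb for MCM7 in vehicle-treated parental cells. The divisor was every base annotated as exon in any transcript, 7338 for MCM5 and 4386 for MCM7, and the order depends on it. In mean CPM without this divisor, MCM5 at 93.2 was above MCM2 at 69.0 and MCM6 at 69.1 in the same cells. With gefitinib the lowest was MCM2 at 1.98 and the highest MCM7 at 11.5 CPM per kb. MCM7 was the highest subunit in 9 of the 11 groups and MCM3 in the other two, both of them tolerant cells with vehicle. Over all 11 groups, WZ4002-tolerant vehicle cells had the highest mean for 22 members and gefitinib-treated parental cells the lowest for 33.

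**Figure D2:**
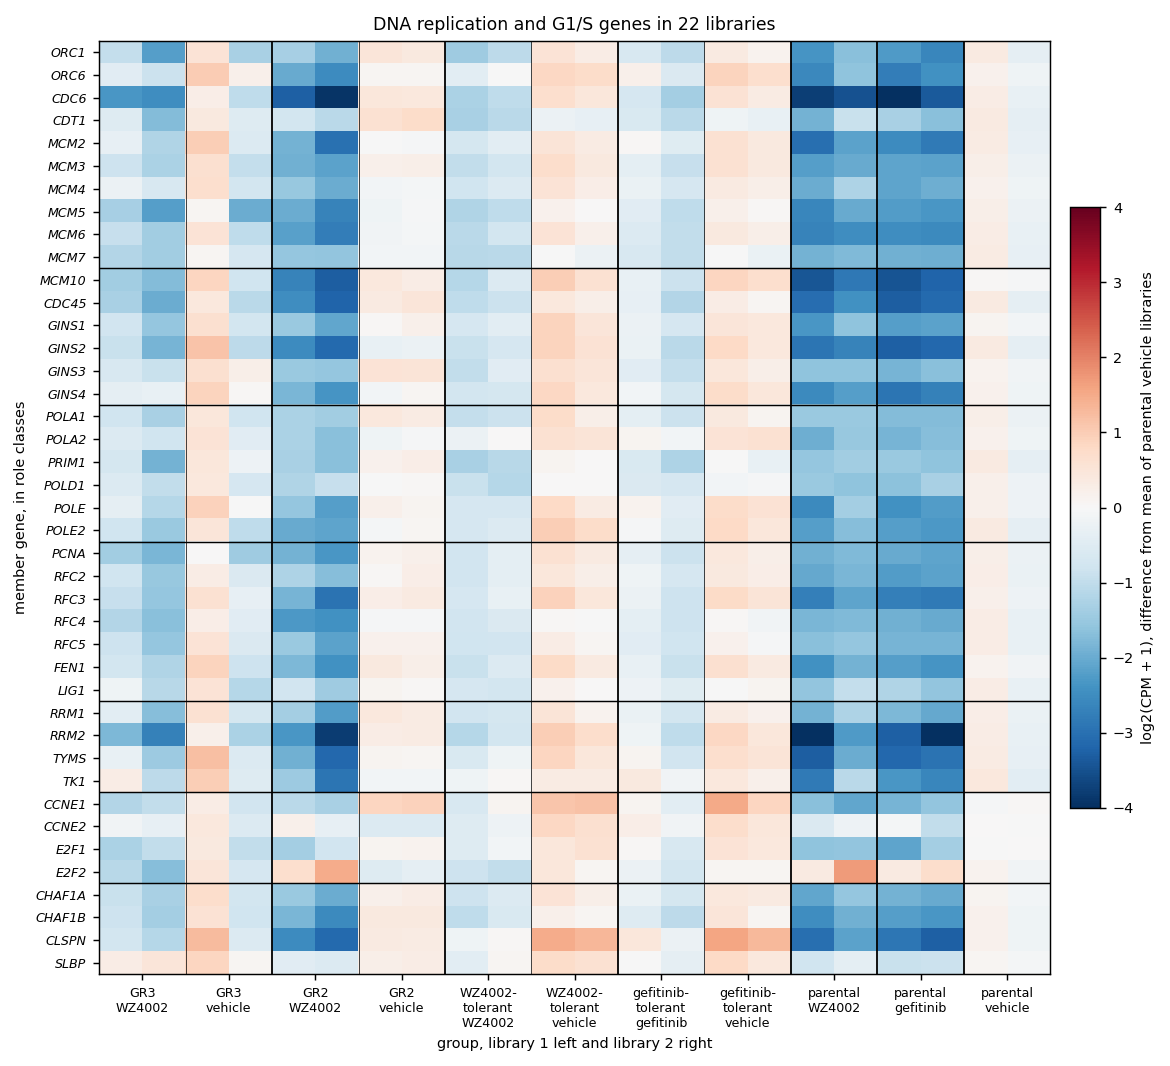
Level of each of the 41 genes (rows, in role classes) in each of 22 libraries (columns, by group), as the difference in log2(CPM + 1) from the mean of the vehicle-treated parental libraries. The inhibitor-treated parental and GR2 columns are blue in nearly every row, and E2F2 is red there.

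The first comparison asks what the inhibitors did to replication genes in parental cells. With gefitinib, 39 of 41 members fell and 0 rose, by a median log2 difference of -2.17, against a median of 0.042 over all genes tested. Of all tested genes 21.8% were called lower and 23.5% higher. The median member kept 19.4% of its vehicle level, and 30 members kept under 25%. With WZ4002, 39 members fell and 1 rose, by a median of -1.94, against a median of 0.043 over all genes tested, of which 22.3% were called lower and 25.1% higher. Both comparisons share the vehicle libraries, so their likeness is not independent.

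All 10 licensing genes fell with gefitinib, by a median of -2.36. CDC6, the ATPase that loads MCM, read 2.41 and 4.22 CPM with gefitinib, against 65.6 and 42.6 CPM with vehicle (log2 difference -3.67, SE 0.35, limma adjusted p = 2.64e-06). The groups were far apart, and CDC6 had the largest fall of the licensing class. MCM7, the class's most abundant member, read 51.5 and 49.6 CPM with gefitinib and 244 and 157 CPM with vehicle, a difference of -1.93, SE 0.22, limma adjusted p = 9.05e-06. CDT1, the partner of CDC6 in loading, changed least in this class. It read 16.04 and 12.02 CPM with gefitinib and 52.6 and 31.7 CPM with vehicle (-1.49, SE 0.38, limma adjusted p = 0.00514), and without vehicle library 1 the adjusted p was 0.0757. The other MCM subunits kept 14.1% (MCM2) to 23.7% (MCM4) of their vehicle means.

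All 6 genes that activate the helicase fell, with the lowest class median, -3.01, and the median gene of the class kept 7.08% of its vehicle level. MCM10, which helps switch the loaded helicase on, read 0.34 and 0.60 CPM with gefitinib and 14.2 and 13.2 CPM with vehicle (-3.33, SE 0.39, limma adjusted p = 1.39e-05). It was close to the bottom of the measured range in both gefitinib libraries. GINS1, the most abundant of the class, read 4.65 and 4.84 CPM with gefitinib and 27.1 and 22.6 CPM with vehicle (-2.17, SE 0.36, limma adjusted p = 0.000243). GINS3, another subunit of the same complex, changed least, with 3.22 and 3.89 CPM with gefitinib against 16.1 and 12.9 CPM with vehicle (-1.76, SE 0.20, limma adjusted p = 1.22e-05).

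All 6 polymerase and primase genes fell by a median of -1.76, and all 7 clamp, loader and lagging strand genes by a median of -2.06. POLE, the catalytic subunit of the leading strand polymerase, read 6.98 and 8.16 CPM with gefitinib and 48.5 and 36.3 CPM with vehicle (-2.33, SE 0.38, limma adjusted p = 0.000183). POLD1, the catalytic subunit of the lagging strand polymerase, read 13.2 and 17.1 CPM with gefitinib and 50.3 and 37.6 CPM with vehicle (-1.47, SE 0.25, limma adjusted p = 0.000298). Both genes fell without overlap between groups. PCNA, the sliding clamp, read 27.7 and 26.4 CPM with gefitinib and 136 and 99.6 CPM with vehicle (-2.06, SE 0.32, limma adjusted p = 0.000153). RFC3, a subunit of the clamp loader, fell most in its class, to 4.57 and 4.24 CPM, against 41.8 and 31.1 CPM with vehicle (-2.78, SE 0.36, limma adjusted p = 3.24e-05). LIG1, the ligase that joins Okazaki fragments, read 23.9 and 18.6 CPM with gefitinib and 70.5 and 45.96 CPM with vehicle (-1.39, SE 0.41, limma adjusted p = 0.0117). Its call was the least secure of the class, since the adjusted p was 0.115 without vehicle library 1 and 0.0800 without gefitinib library 2.

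All 4 nucleotide supply genes fell, by a median of -2.76, and held the largest fall of the members on the log2(CPM + 1) scale. In percent of the vehicle mean MCM10 kept least of the members, at 3.43%. RRM2, the inducible subunit of ribonucleotide reductase, read 10.1 and 4.79 CPM with gefitinib, against 132 and 85.6 CPM with vehicle (-3.74, SE 0.59, limma adjusted p = 0.000161). RRM1, the constant subunit of the same enzyme, read 16.8 and 13.98 CPM with gefitinib and 72.9 and 50.5 CPM with vehicle (-1.92, SE 0.42, limma adjusted p = 0.00182). RRM2 thus kept 6.85% of its vehicle mean and RRM1 kept 24.9%. With WZ4002, RRM2 read 5.17 and 21.2 CPM, more spread than with gefitinib, and fell by a log2 difference of -3.19, SE 0.59, limma adjusted p = 0.000506. TYMS and TK1, which supply thymidine nucleotides, also fell with both inhibitors. TYMS shares 46.56% of its annotated exon bases with the opposite-strand genes ENOSF1 and TYMSOS and, as the sources used here do not say whether reads were counted by strand, its level may hold reads of these genes.

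All 4 chromatin, checkpoint and histone mRNA genes fell. CLSPN, the mediator of CHK1 activation, read 0.72 and 0.35 CPM with gefitinib and 13.4 and 10.6 CPM with vehicle (-3.08, SE 0.43, limma adjusted p = 5.39e-05). SLBP, which binds the stem loop of histone mRNA, changed least of the members that fell, at 25.4 and 26.1 CPM with gefitinib against 50.5 and 46.04 CPM with vehicle (-0.88, SE 0.23, limma adjusted p = 0.00527). SLBP still kept 53.4% of its vehicle level, whereas CLSPN kept 4.48%. The subunits CHAF1A and CHAF1B of the chromatin assembly factor fell too.

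**Figure D3:**
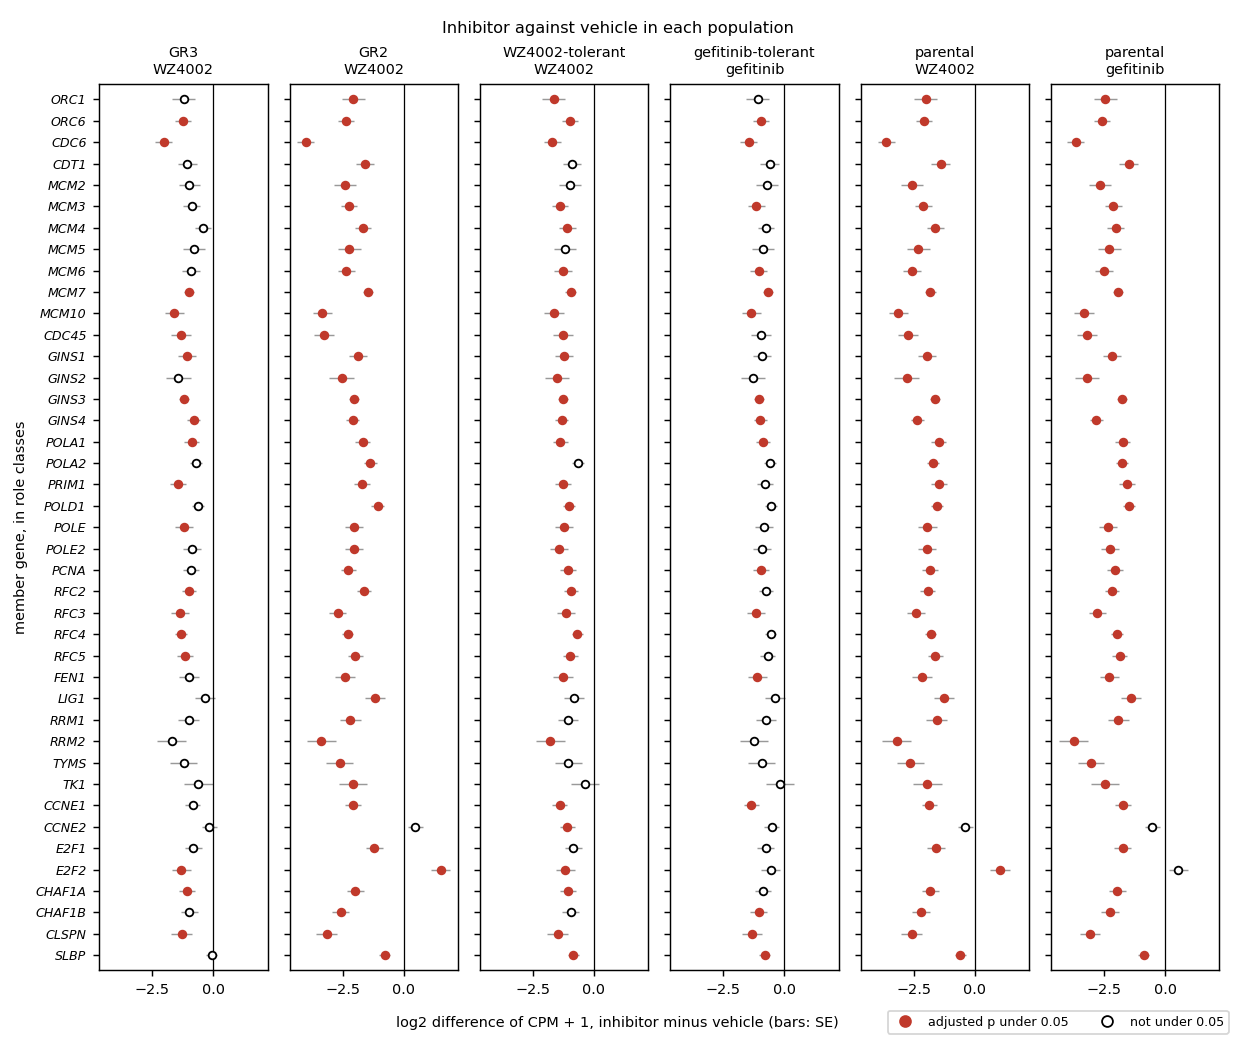
Difference in log2(CPM + 1) between inhibitor and vehicle for each of the 41 genes (rows) in 6 comparisons (panels), with SE bars, filled where the adjusted p was under 0.05. In parental and GR2 cells nearly all points lie left of 0, E2F2 lies right of it, and in the other panels the points lie nearer to 0.

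In the cyclin E and E2F class 2 of 4 genes fell with gefitinib. E2F1, the best known activator of S phase genes, read 4.15 and 7.75 CPM with gefitinib and 20.98 and 21.5 CPM with vehicle (-1.73, SE 0.35, limma adjusted p = 0.00105). CCNE1, the gene of cyclin E1, read 2.12 and 2.80 CPM with gefitinib and 10.1 and 10.6 CPM with vehicle (-1.72, SE 0.31, limma adjusted p = 0.000486), and with WZ4002 it read 2.60 and 1.70 CPM (-1.87, SE 0.31, limma adjusted p = 0.000243). CCNE2, the second cyclin E gene, was low throughout. It read 3.22 and 1.25 CPM with gefitinib and 3.52 and 3.38 CPM with vehicle (-0.53, SE 0.31, limma adjusted p = 0.173), and the interval of its difference ran from -1.18 to 0.12. Without gefitinib library 1 the difference was -0.98 with an adjusted p of 0.0350. CCNE2 shares 37.14% of its exon bases with other genes, mostly INTS8 on the opposite strand.

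E2F2, the other activator E2F among the members, read higher with the inhibitors. It read 11.5 and 30.5 CPM with WZ4002, 11.6 and 14.96 CPM with gefitinib and 9.75 and 7.77 CPM with vehicle. All 4 inhibitor libraries were above both vehicle libraries, and 1 WZ4002 library was far above the rest. The difference was 1.03, SE 0.40, limma adjusted p = 0.0441, with WZ4002 and 0.55, SE 0.40, limma adjusted p = 0.284, with gefitinib. The WZ4002 call was narrow, and it was lost without vehicle library 1 (adjusted p = 0.0873), vehicle library 2 (0.174) or WZ4002 library 2 (0.503), as well as with each of 5 other settings, where the adjusted p was 0.0502 to 0.123.

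**Figure D4:**
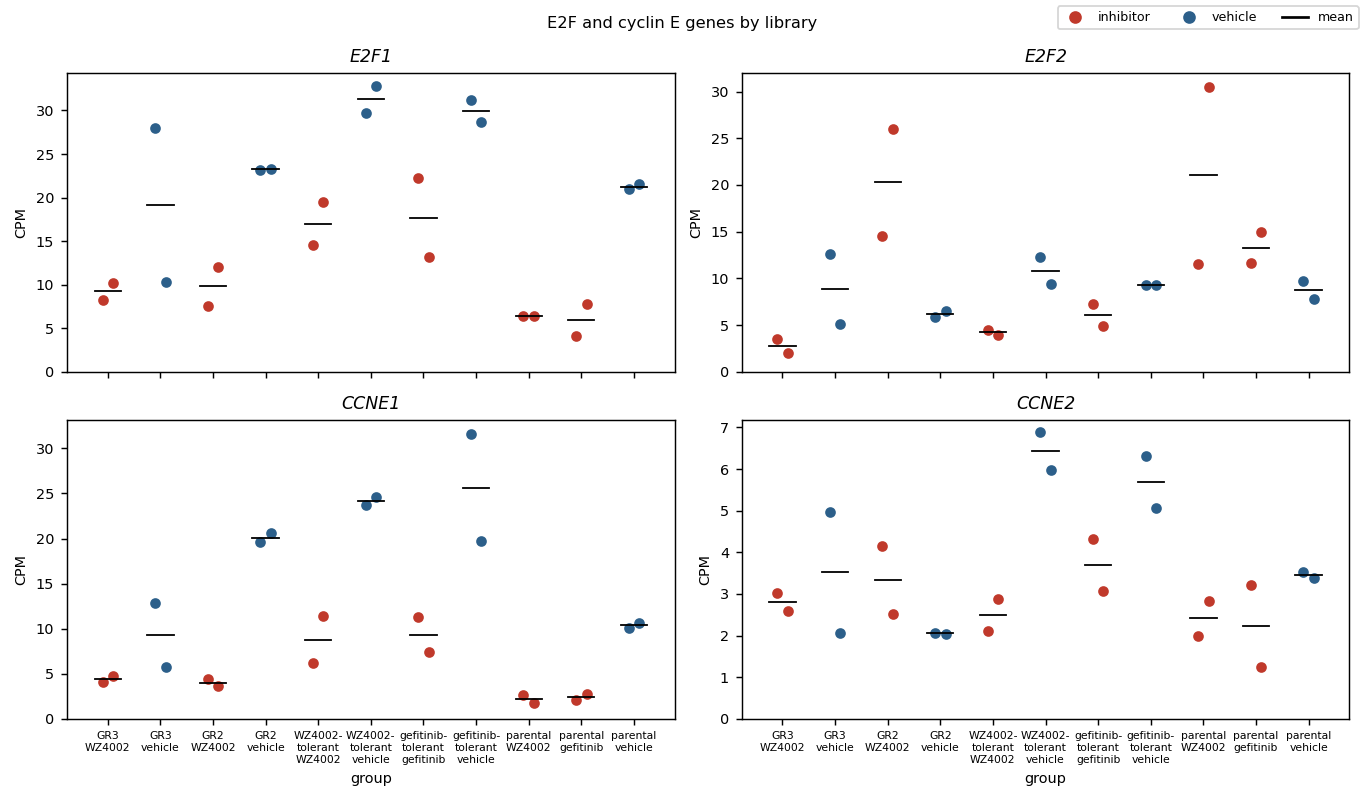
CPM of E2F1, E2F2, CCNE1 and CCNE2 (panels) in both libraries of each of 11 groups, with group means as bars, red for inhibitor and blue for vehicle. E2F2 is highest in WZ4002-treated GR2 and parental cells, where E2F1 and CCNE1 are low.

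Parental cells with WZ4002 were set against parental cells with gefitinib, whose labelled dose and time were the same. Between them 0 members differed, 0 passed even an unadjusted p under 0.05, and the median difference was 0.20. Of all tested genes 0% were called in either direction, and 525 of 15485 had an unadjusted p under 0.05. RRM2 had the largest difference, 0.55 with an interval from -0.71 to 1.81, and without WZ4002 library 2 it was -0.38. For E2F2 the difference was 0.49 and its interval ran from -0.36 to 1.34. Such intervals do not show that the inhibitors act alike on these genes.

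GR2 cells also lost expression of these genes under WZ4002. The vehicle libraries lie in run 3 of the columns and the WZ4002 libraries in runs 1 and 2, so treatment and run changed together. There 39 members fell and 1 rose, by a median of -2.07, against a median of 0.0083 over all genes tested, of which 28.3% were called lower and 27.4% higher. CDC6 read 4.61 and 2.57 CPM with WZ4002 and 72.7 and 70.4 CPM with vehicle (-4.02, SE 0.35, limma adjusted p = 2.25e-07). RRM2 read 20.1 and 6.72 CPM with WZ4002, against 132 and 132 CPM with vehicle (-3.38, SE 0.59, limma adjusted p = 0.000197). CCNE1 fell as well, to 4.36 and 3.67 CPM with WZ4002, against 19.6 and 20.6 CPM with vehicle (-2.08, SE 0.31, limma adjusted p = 5.22e-05). In these cells E2F2 was again the member that rose. It read 14.6 and 25.9 CPM with WZ4002 and 5.83 and 6.54 CPM with vehicle (1.51, SE 0.40, limma adjusted p = 0.00470), and without WZ4002 library 2 the adjusted p was 0.0703. CCNE2 read 4.15 and 2.52 CPM with WZ4002 and 2.06 and 2.04 CPM with vehicle, and its difference of 0.48 had an interval from -0.17 to 1.14.

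In GR3 cells with WZ4002, 18 of 41 members fell and 0 rose, by a median of -1.005, against a median of 0.019 over all genes tested, of which 9.87% were called lower and 12.1% higher. The median member kept 42.1% of its vehicle level, and 2 members kept under 25%. This count moved with single libraries. It was 3 without GR3 vehicle library 1, 38 without GR3 vehicle library 2 and 4 without GR3 WZ4002 library 2, and 20 without GR3 WZ4002 library 1. With the column-run term it was 33, and with the spread of these 4 libraries alone it was 1. By role, 5 of 6 helicase activation genes fell, as did 4 of 7 clamp and lagging strand, 3 of 6 polymerase, 3 of 10 licensing, 2 of 4 chromatin and 1 of 4 cyclin E and E2F genes. Of the 4 nucleotide supply genes 0 fell, and 3 had an unadjusted p under 0.05.

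CDC6 led these falls, with 9.79 and 8.70 CPM with WZ4002 against 64.4 and 25.8 CPM with vehicle (-2.03, SE 0.35, limma adjusted p = 0.000866), and its groups did not overlap. With the spread of these 4 libraries alone its adjusted p was 0.0534. PRIM1, the primase that starts each strand, read 10.3 and 3.91 CPM with WZ4002 and 24.2 and 14.9 CPM with vehicle (-1.43, SE 0.33, limma adjusted p = 0.00651). Its adjusted p was 0.0788 without vehicle library 1 and 0.106 without WZ4002 library 2. RRM2 read 30.1 and 15.5 CPM with WZ4002 and 123 and 43.1 CPM with vehicle (-1.71, SE 0.59, limma adjusted p = 0.0505), just short of the call, and without vehicle library 2 its adjusted p was 0.0173. In GR3 cells E2F2 was low with the inhibitor, unlike in GR2 cells. It read 3.49 and 2.01 CPM with WZ4002 and 12.7 and 5.08 CPM with vehicle (-1.31, SE 0.40, limma adjusted p = 0.0291), and this call was lost without vehicle library 1 (adjusted p = 0.299) or WZ4002 library 2 (0.198). SLBP stayed nearest to 0, at 59.2 and 68.6 CPM with WZ4002 against 87.9 and 50.7 CPM with vehicle, a difference of -0.067 that was 0.32 without vehicle library 1 and 0.038 without WZ4002 library 1.

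In gefitinib-tolerant cells gefitinib lowered 16 members and raised 0, by a median of -0.89, against a median of 0.012 over all genes tested, of which 13.6% were called lower and 15.2% higher. The median member kept 53.5% of its vehicle level and 0 members kept under 25%. This count was 0 without gefitinib library 2, 1 without vehicle library 1 and 8 without vehicle library 2, and 33 with the column-run term. By role, 5 of 10 licensing, 3 of 6 helicase activation, 3 of 7 clamp and lagging strand, 3 of 4 chromatin, 1 of 6 polymerase and 1 of 4 cyclin E and E2F genes fell. Of the 4 nucleotide supply genes 0 fell, and 0 had an unadjusted p under 0.05. CDC6 read 33.02 and 20.2 CPM with gefitinib and 79.3 and 66.5 CPM with vehicle (-1.46, SE 0.35, limma adjusted p = 0.00698). CCNE1 read 11.3 and 7.40 CPM with gefitinib and 31.6 and 19.7 CPM with vehicle (-1.36, SE 0.31, limma adjusted p = 0.00583). Neither gene overlapped between groups. Both calls were lost without vehicle library 1 (adjusted p = 0.0832 for CDC6 and 0.108 for CCNE1) and without gefitinib library 2 (0.116 and 0.0965). TK1, the thymidine salvage kinase, had the smallest difference, with 45.96 and 31.4 CPM with gefitinib against 46.6 and 40.2 CPM with vehicle (-0.18, interval -1.42 to 1.05), and without gefitinib library 2 it was 0.085. E2F2 read 7.27 and 4.85 CPM with gefitinib and 9.29 and 9.30 CPM with vehicle, a difference of -0.57 with an interval from -1.42 to 0.29.

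In WZ4002-tolerant cells WZ4002 lowered 31 members and raised 0, by a median of -1.16, against a median of 0.026 over all genes tested, of which 15.6% were called lower and 17.0% higher. The median member kept 43.2% of its vehicle level, and again 0 members kept under 25%. Without vehicle library 1 the count was 4, without WZ4002 library 1 it was 6 and without WZ4002 library 2 it was 19. By role, 7 of 10 licensing, 6 of 6 helicase activation, 6 of 7 clamp and lagging strand, 5 of 6 polymerase, 3 of 4 chromatin, 3 of 4 cyclin E and E2F and 1 of 4 nucleotide supply genes fell. CDC6 read 21.3 and 25.6 CPM with WZ4002 and 85.3 and 72.01 CPM with vehicle (-1.71, SE 0.35, limma adjusted p = 0.00245), a call that held without any of the 4 libraries. RRM2 had the largest difference, with 47.3 and 62.7 CPM with WZ4002 against 213 and 172 CPM with vehicle (-1.79, SE 0.59, limma adjusted p = 0.0307). Its call was lost without any 1 of the 4 libraries, with adjusted p from 0.0667 to 0.171. CCNE1 read 6.21 and 11.4 CPM with WZ4002 and 23.7 and 24.6 CPM with vehicle (-1.41, SE 0.31, limma adjusted p = 0.00396), and without WZ4002 library 1 its adjusted p was 0.0584.

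The other cyclin E and E2F genes of WZ4002-tolerant cells fell too, apart from E2F1. CCNE2 read 2.10 and 2.89 CPM with WZ4002 and 6.89 and 5.98 CPM with vehicle (-1.10, SE 0.31, limma adjusted p = 0.0144), and the call was lost without vehicle library 1 (adjusted p = 0.110) or WZ4002 library 1 (0.1003). E2F2 read 4.49 and 3.94 CPM with WZ4002 and 12.3 and 9.35 CPM with vehicle (-1.17, SE 0.40, limma adjusted p = 0.0357). The E2F2 groups did not overlap, but its call was lost without any 1 of the 4 libraries, with adjusted p from 0.0584 to 0.214. TK1 read 30.9 and 35.97 CPM with WZ4002 and 43.5 and 43.8 CPM with vehicle, and its difference of -0.38 had an interval from -1.61 to 0.86.

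Without inhibitor few members passed the test between populations. GR2 vehicle cells differed from parental vehicle cells in 0 members, with a median difference of 0.15, against 7.76% of all tested genes called lower and 8.98% higher, and 2 members had an unadjusted p under 0.05. CCNE1 was furthest apart, with 19.6 and 20.6 CPM in GR2 cells and 10.1 and 10.6 CPM in parental cells (0.89, SE 0.31, limma adjusted p = 0.0636). GR3 vehicle cells also differed from parental vehicle cells in 0 members, with a median of -0.057, against 11.1% of all tested genes called lower and 9.77% higher, and 2 members had an unadjusted p under 0.05. Here the spread of the GR3 libraries decided the count, which was 11 without GR3 library 1 and 3 without GR3 library 2, and 2 with the column-run term. MCM5 read 96.4 and 22.6 CPM in GR3 cells and 109 and 77.5 CPM in parental cells (-0.95, SE 0.46, limma adjusted p = 0.162), and its difference was -1.97 without GR3 library 1 and 0.069 without GR3 library 2.

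With vehicle, CCNE1 and CLSPN were the only members called between either tolerant population and parental cells, and both read higher in the tolerant cells. In gefitinib-tolerant cells 2 members rose and 0 fell, against 9.39% of all tested genes called higher and 9.64% lower. In WZ4002-tolerant cells 2 members rose and 0 fell, against 8.72% of all tested genes called higher and 9.73% lower. In both comparisons 2 of 41 is below the share of all tested genes called higher. CLSPN read 37.8 and 30.5 CPM in gefitinib-tolerant, 35.2 and 31.7 CPM in WZ4002-tolerant and 13.4 and 10.6 CPM in parental cells. The difference from parental cells was 1.44, SE 0.43, limma adjusted p = 0.0272, in gefitinib-tolerant cells. In WZ4002-tolerant cells it was 1.42, SE 0.43, limma adjusted p = 0.0301. All 4 tolerant libraries were above both parental libraries, which these comparisons share.

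CCNE1 read 31.6 and 19.7 CPM in gefitinib-tolerant, 23.7 and 24.6 CPM in WZ4002-tolerant and 10.1 and 10.6 CPM in parental cells. Its difference was 1.19, SE 0.31, limma adjusted p = 0.0153, in gefitinib-tolerant cells and 1.15, SE 0.31, limma adjusted p = 0.0194, in WZ4002-tolerant cells. These 4 calls were narrow. For CLSPN they were lost without any 1 of the libraries compared, with adjusted p up to 0.167 in gefitinib-tolerant and up to 0.155 in WZ4002-tolerant cells. With a pseudocount of 0.1 both CLSPN calls were lost as well, at an adjusted p of 0.0703 in gefitinib-tolerant and 0.0738 in WZ4002-tolerant cells. For CCNE1 they were lost without any 1 library in WZ4002-tolerant cells (adjusted p up to 0.0959) and in gefitinib-tolerant cells without either parental library (0.0831 and 0.0650) or without tolerant library 1 (0.181). With the column-run term the count of members called was 6 in gefitinib-tolerant and 9 in WZ4002-tolerant cells. The median member was at 132% of the parental level in gefitinib-tolerant and at 140.3% in WZ4002-tolerant cells.

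Between the derivatives, CCNE1 was lower in GR3 than in GR2 vehicle cells, at 12.8 and 5.74 CPM in GR3 against 19.6 and 20.6 CPM in GR2 cells (-1.13, SE 0.31, limma adjusted p = 0.0119). It was the 1 member that fell, and 0 rose, against 17.5% of all tested genes called lower and 15.6% higher. Without GR3 library 1 the count of members called was 17 and without GR3 library 2 it was 4, and without either GR2 library it was 0. The CCNE1 call itself was lost without GR3 library 2 (adjusted p = 0.183), GR2 library 1 (0.0554) or GR2 library 2 (0.0652).

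Under the inhibitor the populations parted. GR2 cells with WZ4002 differed from parental cells with WZ4002 in 0 members (median 0.082, 2 members at an unadjusted p under 0.05), against 2.87% of all tested genes called lower and 2.80% higher, and with the column-run term in 1 member. GR3 cells with WZ4002 had 20 members higher and 1 lower than parental cells with WZ4002 (median 0.85), against 14.3% of all tested genes called higher and 15.4% lower. This count of 21 was 5 without GR3 library 1 and 5 without parental WZ4002 library 1. On the log2(CPM + 1) scale GINS4, a subunit of the helicase, was furthest above, with 12.7 and 13.2 CPM in GR3 cells and 2.02 and 2.82 CPM in parental cells (2.03, SE 0.27, limma adjusted p = 4.77e-05), and the call held without any 1 of the 4 libraries. In percent of the parental mean MCM10 was furthest above, at 570%, from 0.37 and 1.04 CPM in parental cells. MCM2 read 53.8 and 28.8 CPM in GR3 cells and 7.53 and 14.6 CPM in parental cells (1.81, SE 0.45, limma adjusted p = 0.00632). Its adjusted p was 0.0804 without GR3 library 1 and 0.0710 without parental library 1.

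Tolerant cells under their inhibitor also stood above parental cells. Gefitinib-tolerant cells with gefitinib had 36 members higher and 0 lower than parental cells with gefitinib (median 1.56), against 16.3% of all tested genes called higher and 15.6% lower. Without gefitinib-tolerant library 1 the count was 23. CLSPN read 16.7 and 9.97 CPM in gefitinib-tolerant cells and 0.72 and 0.35 CPM in parental cells (3.19, SE 0.43, limma adjusted p = 7.05e-05). RRM2 read 93.3 and 51.8 CPM in gefitinib-tolerant against 10.1 and 4.79 CPM in parental cells (3.14, SE 0.59, limma adjusted p = 0.00103). TK1 read 45.96 and 31.4 CPM in gefitinib-tolerant against 6.09 and 4.81 CPM in parental cells (2.60, SE 0.58, limma adjusted p = 0.00326). These genes, and CDC6 at 33.02 and 20.2 CPM in gefitinib-tolerant against 2.41 and 4.22 CPM in parental cells (2.67, SE 0.35, limma adjusted p = 5.82e-05), kept their calls without any 1 of the 4 libraries.

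WZ4002-tolerant cells with WZ4002 had 30 members higher and 1 lower than parental cells with WZ4002 (median 1.27), against 17.6% of all tested genes called higher and 19.0% lower. The count of 31 was 18 without parental library 1 and 15 without WZ4002-tolerant library 2. CLSPN read 10.3 and 12.2 CPM in WZ4002-tolerant cells and 0.58 and 1.91 CPM in parental cells (2.51, SE 0.43, limma adjusted p = 0.000413). MCM10 read 5.61 and 9.14 CPM in WZ4002-tolerant cells and 0.37 and 1.04 CPM in parental cells (2.29, SE 0.39, limma adjusted p = 0.000427). Both calls held without any 1 of the 4 libraries. Over all members, the median level was 364% of the parental one in gefitinib-tolerant, 266% in WZ4002-tolerant, 202% in GR3 and 107% in GR2 cells, each under its own inhibitor.

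**Figure D5:**
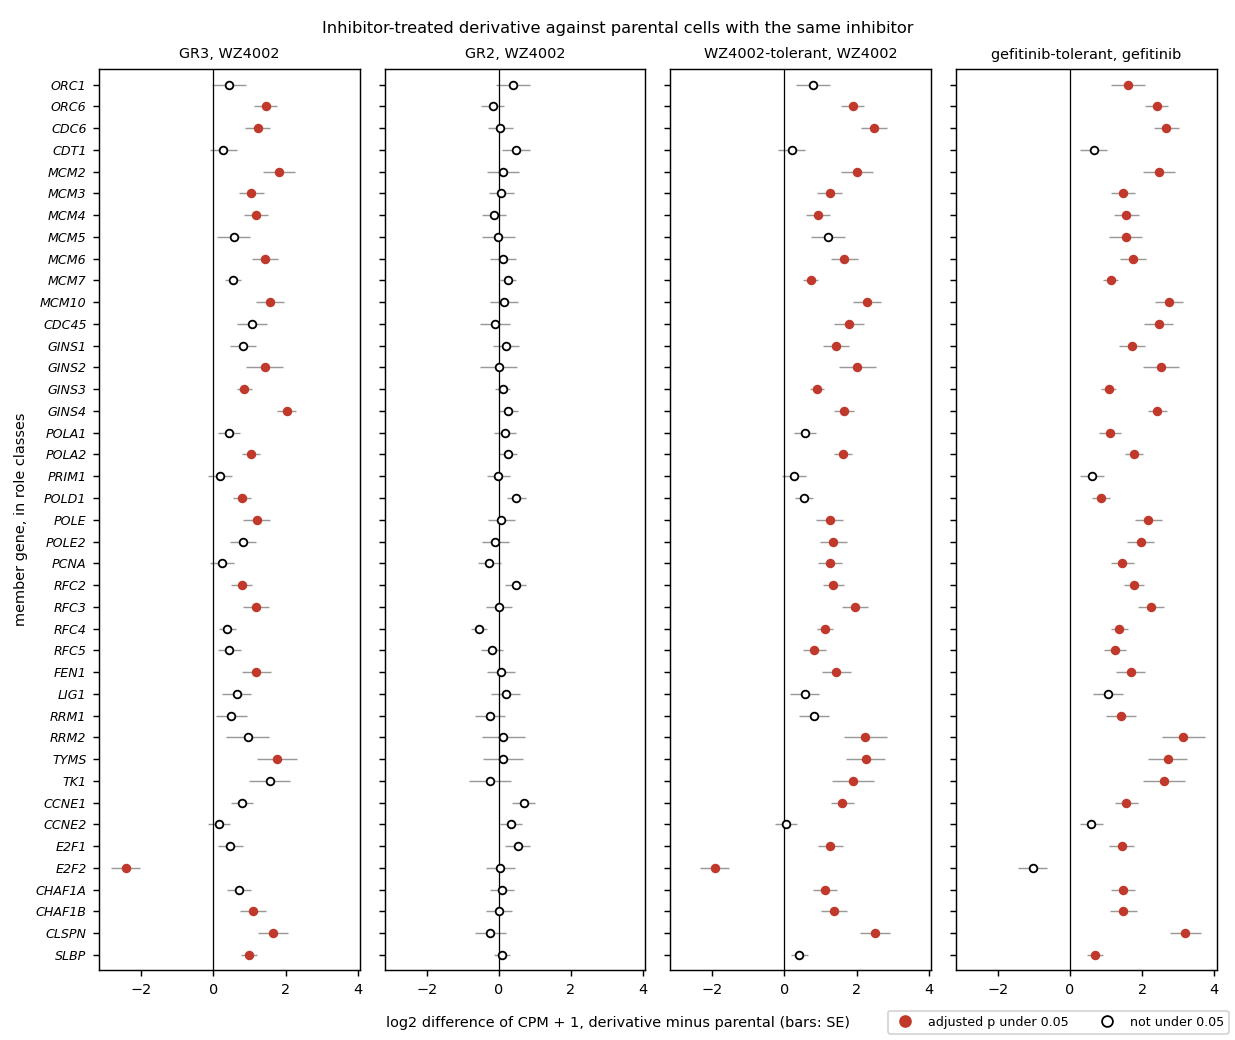
Difference in log2(CPM + 1) between each inhibitor-treated derivative and parental cells with the same inhibitor for each of the 41 genes (rows), with SE bars, filled where the adjusted p was under 0.05. GR2 points lie near 0, most points of the other 3 panels lie right of it, and E2F2 lies left of it in those 3.

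E2F2 ran the other way in these comparisons as well. It was lower in GR3 cells with WZ4002, at 3.49 and 2.01 CPM against 11.5 and 30.5 CPM in parental cells (-2.44, SE 0.40, limma adjusted p = 0.000331). In WZ4002-tolerant cells with WZ4002 it was also lower, at 4.49 and 3.94 CPM against the same parental libraries (-1.93, SE 0.40, limma adjusted p = 0.00174), and both calls held without any 1 of the libraries. Gefitinib-tolerant cells with gefitinib read 7.27 and 4.85 CPM, against 11.6 and 14.96 CPM in parental cells (-1.03, SE 0.40, limma adjusted p = 0.0623). In GR2 cells with WZ4002 the difference from parental cells was 0.043, with an interval from -0.81 to 0.90, and it was -0.62 without parental library 1 and -0.35 without GR2 library 2. By group mean, E2F2 was highest in parental and GR2 cells with WZ4002, whose libraries overlapped, and lowest in GR3 cells with WZ4002, both of whose libraries were below every other library.

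Whether responses differed between populations was tested as a difference of differences. For GR2 against parental cells 0 members differed in their WZ4002 response and 0 had an unadjusted p under 0.05, against 3.45% of all tested genes called lower and 3.34% higher, and the largest difference was 0.87 for CCNE2 (interval -0.051 to 1.80). For GR3 against parental cells 0 members differed and 17 had an unadjusted p under 0.05, against 0.659% of all tested genes called lower and 0.633% higher. Here the vehicle libraries of GR3 decided the count, which was 24 without library 1 and 1 without library 2, and it was also 1 without parental WZ4002 library 1 and 1 with the column-run term. E2F2 came closest, at -2.34, SE 0.57, limma adjusted p = 0.0540, and its adjusted p was 0.0259 without GR3 vehicle library 2 and 0.00585 without parental WZ4002 library 1. MCM6, a subunit of the MCM ring, had a difference of 1.66, which was 2.45 without GR3 vehicle library 1 (adjusted p = 0.00368).

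The gefitinib response of gefitinib-tolerant cells was weaker than that of parental cells for 4 members, CDC6, MCM7, GINS4 and RFC4, and stronger for 0, against 1.07% of all tested genes called higher and 0.936% lower. For CDC6 the difference of responses was 2.22, SE 0.49, limma adjusted p = 0.0278, from a log2 difference of -1.46 in gefitinib-tolerant and -3.67 in parental cells. The median over members was 1.26, and 28 had an unadjusted p under 0.05. The count was 2 without gefitinib-treated parental library 2, and 0 without gefitinib-treated parental library 1, parental vehicle library 1, gefitinib-treated tolerant library 1 or either tolerant vehicle library. RRM2 had the largest difference, 2.50, SE 0.84, limma adjusted p = 0.146. With the column-run term 22 members differed and RRM2 was among them, at an adjusted p of 0.00517.

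In WZ4002-tolerant cells the WZ4002 response differed from the parental one for CDC6 and for E2F2, against 2.10% of all tested genes called higher and 2.40% lower. Counted in both directions, 2 of 41 is not far above the general share. CDC6 fell less in the tolerant cells (1.92, SE 0.49, limma adjusted p = 0.0378). For E2F2 the responses had opposite signs, -1.17 in WZ4002-tolerant and 1.03 in parental cells, and the difference was -2.21, SE 0.57, limma adjusted p = 0.0382. The count of 2 was 1 without parental WZ4002 library 1 or tolerant WZ4002 library 1, and 0 without parental vehicle library 1, parental WZ4002 library 2, tolerant WZ4002 library 2 or either tolerant vehicle library. With the column-run term it was 14.

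Between GR3 and GR2 cells the WZ4002 response differed for 6 members, 5 of which fell less in GR3, against 6.78% of all tested genes called higher and 6.80% lower. The 5 were CDC6, MCM10, CDC45, GINS4 and CHAF1B. Counted in both directions, 6 of 41 is not far above the general share. For CDC6 the difference was 1.98, SE 0.49, limma adjusted p = 0.0148. E2F2 rose with WZ4002 in GR2 cells and fell with it in GR3 cells, a difference of -2.82, SE 0.57, limma adjusted p = 0.00402, that held without any 1 of the 8 libraries. The CDC6 call was lost without GR2 WZ4002 library 2 (adjusted p = 0.0761), GR3 vehicle library 2 (0.0627) or GR2 vehicle library 1 (0.0555). The count of 6 was 33 without GR3 vehicle library 1, 2 without GR3 WZ4002 library 1 or GR2 vehicle library 2, and 1 without GR3 vehicle library 2, GR2 WZ4002 library 2 or GR2 vehicle library 1. With the column-run term it was 10.

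Other genes of the same pathways were read from lists of further replication genes, of RB and E2F control genes and of mitosis genes. The counts over these lists were not redone with single libraries left out, so how far they depend on 1 library is not known. With gefitinib in parental cells, 31 of 39 other replication genes fell and 1 rose, with a median of -1.02. Of all tested genes 21.8% were called lower and 23.5% higher there. MCM8, a relative of the MCM subunits that acts in repair, differed by -1.99, SE 0.22, limma adjusted p = 9.50e-06. DSCC1, a subunit of an alternative clamp loader, differed by -2.84, SE 0.33, limma adjusted p = 1.38e-05, and POLD2, the partner of POLD1, by -1.49, SE 0.19, limma adjusted p = 2.14e-05. The gene that rose was POLD4, the smallest subunit of the same polymerase (0.97, SE 0.22, limma adjusted p = 0.00199), which is named because it was the exception. With WZ4002, 32 of the 39 fell in parental, 35 in GR2, 15 in GR3 and 21 in WZ4002-tolerant cells, and with gefitinib 13 fell in gefitinib-tolerant cells. The shares of all tested genes called lower were, in the same order, 22.3%, 28.3%, 9.87%, 15.6% and 13.6%.

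Of 27 RB and E2F control genes, 11 fell and 3 rose with gefitinib in parental cells, against 21.8% of all tested genes called lower and 23.5% higher. CCND1, the gene of cyclin D1, read 50.1 and 47.5 CPM with gefitinib and 189 and 207 CPM with vehicle (-1.999, SE 0.27, limma adjusted p = 3.92e-05). CDK4, a kinase partner of cyclin D1, differed by -1.14, SE 0.14, limma adjusted p = 1.66e-05. CDK6, the other such kinase, rose, with 95.2 and 75.1 CPM with gefitinib against 33.8 and 39.5 CPM with vehicle (1.19, SE 0.16, limma adjusted p = 4.14e-05). With vehicle, CDK6 was also higher in gefitinib-tolerant (1.61, SE 0.16, limma adjusted p = 1.19e-05) and WZ4002-tolerant cells (1.62, SE 0.16, limma adjusted p = 1.10e-05) than in parental cells. CDKN1A, the gene of the CDK inhibitor p21, read 27.6 and 18.5 CPM in gefitinib-tolerant, 10.9 and 32.3 CPM in WZ4002-tolerant and 3.05 and 3.74 CPM in parental vehicle cells. Its difference was 2.43, SE 0.39, limma adjusted p = 0.000561, in gefitinib-tolerant cells. In WZ4002-tolerant cells it was 2.18, SE 0.39, limma adjusted p = 0.00133. The same vehicle-treated libraries read higher in CLSPN and CCNE1, whose calls were narrow. A link of CDKN1A and CDK6 with these was not tested.

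Under gefitinib, CCND1 read 233 and 182 CPM in gefitinib-tolerant cells and 50.1 and 47.5 CPM in parental cells (2.06, SE 0.27, limma adjusted p = 5.64e-05). E2F7, an E2F that represses transcription, differed between the same groups by 2.59, SE 0.39, limma adjusted p = 0.000191. With WZ4002, CCND1 was higher in WZ4002-tolerant than in parental cells as well (1.72, SE 0.27, limma adjusted p = 0.000200). In GR3 cells CDKN1C, the gene of the CDK inhibitor p57, rose with WZ4002, to 8.38 and 4.48 CPM against 1.10 and 1.30 CPM with vehicle (1.71, SE 0.23, limma adjusted p = 0.000165). Of the 27 control genes 5 rose and 8 fell with WZ4002 in GR3 cells, against 12.1% of all tested genes called higher and 9.87% lower.

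All 25 mitosis genes fell with gefitinib in parental cells, by a median of -2.44, against 21.8% of all tested genes called lower. CDK1, the mitotic kinase, read 9.35 and 5.49 CPM with gefitinib and 94.96 and 64.3 CPM with vehicle (-3.27, SE 0.65, limma adjusted p = 0.000922). FOXM1, a factor that drives mitotic genes, differed by -2.44, SE 0.42, limma adjusted p = 0.000302, and KIF23, a motor of cell division, by -2.55, SE 0.52, limma adjusted p = 0.00108. With WZ4002 in GR3 cells 25 of 25 had a difference below 0, with a median of -1.29, and 13 had an unadjusted p under 0.05. Of all tested genes 9.87% were called lower in GR3 cells. There 1 of 25 passed, FOXM1 (-1.38, SE 0.42, limma adjusted p = 0.0284), and its call was lost without vehicle library 1 (adjusted p = 0.188) or WZ4002 library 2 (0.308). With their inhibitor, 0 of 25 changed in gefitinib-tolerant cells (median -0.64, 0 at an unadjusted p under 0.05) and 0 in WZ4002-tolerant cells (median -0.89, 1 at an unadjusted p under 0.05). The shares of all tested genes called lower were 13.6% and 15.6% in these comparisons. Under gefitinib 23 of 25 mitosis genes were higher in gefitinib-tolerant than in parental cells, CDK1 among them (2.95, SE 0.65, limma adjusted p = 0.00303), against 16.3% of all tested genes. Under WZ4002, 6 of 25 were higher in WZ4002-tolerant than in parental cells (median 1.29) and 0 of 25 in GR3 than in parental cells (median 0.77, 1 at an unadjusted p under 0.05). The shares of all tested genes called higher were 17.6% and 14.3%, so 6 of 25 is not far above the general share. The gefitinib response of the mitosis genes differed between gefitinib-tolerant and parental cells for 0 of 25, with 14 at an unadjusted p under 0.05. Of all tested genes 1.07% were called higher and 0.936% lower in this response.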

How the data were processed

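The deposited table gives CPM per gene for 22 libraries of polyadenylated RNA. The authors' CPM values were deposited rounded to 2 decimals, and the submitters' processing notes name STAR, HTSeq and hg19 without versions here. Whether reads were counted by strand is not given in the sources used here, although the labels' protocols name a directional kit. The table lists 17165 genes, which hold 54.6% to 64.2% of the CPM total of a library.

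Values were tested as log2(CPM + 1) with limma 3.58.1 in R 4.3.3, with a mean for each of 11 groups, trended empirical Bayes and 21 contrasts. The filter kept the 15485 genes that reached 1 CPM in 2 or more libraries, and p-values were adjusted over all of them within each contrast. Fold changes on this scale understate those of low genes. Errors are standard errors and intervals cover 95%. The fit was tried on simulated data with independent noise for each gene. Those data held no shift shared by many genes of a library, as seen in the members here. A count model, planned first, was not used because the deposited unit is CPM. No sample was left out.

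The 41 members and the pathway lists were chosen with earlier results of these data known. Genes named with full values were, in each role class, the most abundant member and those with the lowest and highest change with gefitinib in parental cells, then the members with the lowest and highest change in each other comparison, and from each pathway list up to 3 genes with the lowest p in a comparison. POLD4, PRIM1 and further values of CDC6, MCM2, MCM6, MCM10, RRM2, TK1, CLSPN and the cyclin E and E2F genes, and of pathway genes in a second comparison, were chosen after their values were seen. Alternatives were another pseudocount, no filter, another scaling, a replicate block, a fit on the compared libraries alone, each library left out in turn and, chosen after seeing the table, a term for the 3 runs of columns in the table. Promoter sequences came from RefSeq's table for GRCh38.p14, and exon lengths and shared exon bases from GENCODE's annotation. Of the members, 19 share exon bases with another gene, 7 of them over 20% of their bases.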

Additional observations from a re-analysis of the deposited data

Results flagged for a closer look

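A difference of inhibitor responses between populations passed the limma test for 12 pairs of a member and a comparison. Of all tested genes 1.07% were called higher and 0.936% lower for gefitinib-tolerant against parental cells. For WZ4002-tolerant against parental cells the shares were 2.10% and 2.40%, and for GR3 against GR2 cells 6.78% and 6.80%. In these last 2 comparisons the members called, 2 and 6 of 41, were not far above the shares of both directions together. Values are differences of log2 responses, tolerant or derivative population minus the other, and positive where the fall was smaller.

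Between gefitinib-tolerant and parental cells with gefitinib they were 2.22 for CDC6 (adjusted p = 0.0278), 1.26 for MCM7 (0.0444), 1.82 for GINS4 (0.0213) and 1.41 for RFC4 (0.0357). Between WZ4002-tolerant and parental cells with WZ4002 they were 1.92 for CDC6 (0.0378) and -2.21 for E2F2 (0.0382).

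Between GR3 and GR2 cells with WZ4002 they were 1.98 for CDC6 (adjusted p = 0.0148), 1.75 for MCM10 (0.0471), 1.95 for CDC45 (0.0374), 1.28 for GINS4 (0.0352), 1.61 for CHAF1B (0.0490) and -2.82 for E2F2 (0.00402). The GR3 vehicle libraries, on which these last 6 rest, differed from each other in the same direction in all 41 members. Of the 12 calls, that of E2F2 between GR3 and GR2 held under every alternative tried, and each of the others was lost without at least 3 of the libraries in its comparison, taken singly.

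For the gefitinib-tolerant comparison the E2F2 difference was -1.11, with an interval from -2.32 to 0.093 (adjusted p = 0.367). CDC6 is named in all 3 comparisons, and E2F2 in both WZ4002 comparisons.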

How the results depend on the processing

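With another scaling (median of ratios) all 21 counts stayed within 1.5 times. A pseudocount of 0.1 moved 1 count, to 1 for gefitinib-tolerant against parental vehicle cells. Without a filter the count was 10 for gefitinib in gefitinib-tolerant cells, 2, 0 and 3 for the response differences of gefitinib-tolerant against parental, WZ4002-tolerant against parental and GR3 against GR2 cells. With the term for runs of columns, which are an order and not a labelled batch, the counts were 33 for WZ4002 in GR3 and 33 for gefitinib in gefitinib-tolerant cells. With vehicle they were 2, 6 and 9 for GR3, gefitinib-tolerant and WZ4002-tolerant against parental cells, with WZ4002 1 for GR2 against parental cells, and for response differences 1 for GR3, 22 for gefitinib-tolerant and 14 for WZ4002-tolerant against parental and 10 for GR3 against GR2 cells.

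With the spread of the compared libraries alone they were 1 for WZ4002 in GR3 and 31 for gefitinib in gefitinib-tolerant cells. Vehicle comparisons then gave 3, 9 and 9 for GR2, gefitinib-tolerant and WZ4002-tolerant against parental and 0 for GR3 against GR2 cells, WZ4002-treated GR3 against parental cells gave 11, and response differences gave 22 for gefitinib-tolerant and 1 for WZ4002-tolerant against parental and 1 for GR3 against GR2 cells. The cause of these changes was not tested.

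Same-numbered libraries deviated together in some groups and not in others. Of 55 pairs of groups 20 had deviations correlated over 0.1 and 8 under -0.1, with a median of 0.051 and a highest value of 0.63. With the replicate number as a block the counts were 29 for WZ4002 in GR3 cells, 2 for GR3 against GR2 vehicle cells, 2 for the response of GR3 against parental and 11 for GR3 against GR2 cells, and the other 17 stayed within 1.5 times.

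With single libraries left out, the count ranged from 37 to 40 for gefitinib and 34 to 39 for WZ4002 in parental cells, 36 to 39 in GR2, 3 to 38 in GR3, 0 to 18 in gefitinib-tolerant and 4 to 24 in WZ4002-tolerant cells. In vehicle cells it was 0 to 0 for GR2, 0 to 11 for GR3, 0 to 1 for gefitinib-tolerant and 0 to 0 for WZ4002-tolerant against parental and 0 to 17 for GR3 against GR2 cells. Under inhibitor it was 0 to 0 for GR2, 5 to 22 for GR3, 23 to 36 for gefitinib-tolerant and 15 to 30 for WZ4002-tolerant cells. For responses it was 0 to 0 for GR2, 0 to 24 for GR3, 0 to 5 for gefitinib-tolerant and 0 to 3 for WZ4002-tolerant against parental, 1 to 33 for GR3 against GR2, and 0 to 0 for WZ4002 against gefitinib.

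Of 108 gene differences, 7 turned sign with a library left out. Their ranges were -0.46 to 0.32 for SLBP in GR3 cells (0.038 without WZ4002 library 1), -0.45 to 0.085 for TK1 in gefitinib-tolerant cells, -0.62 to 0.71 for E2F2 in WZ4002-treated GR2 against parental cells (-0.35 without GR2 library 2) and -1.97 to 0.069 for MCM5 in GR3 against parental vehicle cells. Between WZ4002 and gefitinib the ranges were -0.38 to 1.47 for RRM2, -0.35 to 0.064 for CCNE1 and -0.18 to 1.15 for E2F2. The full data called 0 of these 7. The E2F2 rise with WZ4002 in parental cells was also lost with the smaller pseudocount, without the filter, with the other scaling, with the column term and with the spread of its own libraries (adjusted p 0.0502 to 0.123). Planned fits with edgeR and DESeq2 were not run, since the unit is CPM. With 2 libraries a group, small differences could not be seen.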
